A study of Mus musculus with 6 samples.

Results

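Interferon-induced genes were followed in mouse hearts on 6 Affymetrix arrays. A list of 41 genes that answer to type I or type II interferon was used. For each gene the brightest probe that names that gene alone was taken, which gave values for 40 members among 22180 genes measured. Ifi44 was not analysed here. In 3 transgenic hearts (genotype Nkx2.5-Cre; R26R-miR302-367) Cre recombinase had switched on a cluster of microRNAs, miR-302 and miR-367, from the Rosa26 locus. The 3 control hearts carried Nkx2.5-Cre without that allele. Cre therefore was present in both groups, on a mixed C57BL/6 x 129S6 background. Cre under Nkx2.5 acts in cardiac progenitors and the cells they give rise to, while the RNA came from whole hearts with all their cell types. The labels give the hearts as taken 14 days after birth in the source name and treatment protocol, and as E14 in the age field. They do not say whether the hearts came from separate animals or how many transgenic lines were used, so p-values measure the spread between these arrays, which may be technical.

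Interferons are secreted proteins that warn cells of infection. Type I interferons bind the Ifnar1 and Ifnar2 receptor and act through a complex that holds Stat2 and Irf9 on promoter elements called ISRE, while interferon gamma, the type II interferon, binds Ifngr1 and Ifngr2 and acts mainly on elements called GAS. The listed genes include GTPases that attack the membranes around intracellular parasites and bacteria, antiviral effectors of the Ifit and Oas type, RNA sensors, transcription factors, chemokines and the machinery that loads peptides on MHC class I. Uninfected tissue keeps a low level of many of these genes.

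The agent that separates the groups is given by 4 of its mature microRNAs, as RefSeq lists them on build GRCm38.p6 at the endogenous cluster, with the seed, bases 2 to 8, in capitals. The probe for Mir367 had log2 values of 7.41, 7.25 and 7.31 in transgenic hearts, against 2.80, 2.94 and 2.69 in control hearts. The probes of all 5 genes of the cluster were higher on every transgenic array, by 2.99 to 6.61 log2 units, Mir302a among them with a 79.6-fold difference. The label was primed from poly(A) tails, so these probes read precursor transcripts and not the mature microRNAs.
mmu-miR-302b-3p: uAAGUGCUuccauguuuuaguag
mmu-miR-302d-3p: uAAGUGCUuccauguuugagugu
mmu-miR-302c-3p: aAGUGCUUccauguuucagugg
mmu-miR-367-3p: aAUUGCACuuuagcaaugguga
miR-302b and miR-302d share 1 seed, miR-302c as listed starts 1 base later and so has its seed shifted, and miR-367 has another. Whether the listed genes carry sites for these seeds was not tested.

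Of 40 measured members, 15 fell, 0 rose and 25 did not pass the test at an adjusted p of 0.05 (limma on log2 values, adjusted by Benjamini-Hochberg over all 22180 genes). Of all genes tested, 5.76% fell and 5.35% rose by the same test. The members had a median log2 change, transgenic minus control, of -0.34, where that of all genes was -0.03. The estimate was below 0 for 35 of 40 members, against 56.7% of all genes. In 24 members each value of 1 group lay beyond all values of the other, 23 of them lower and 1 higher in transgenic hearts, where 16.7% of all genes were lower and 14.2% higher without overlap. Measured changes ran from -1.74 to 0.30 on the log2 scale, and the estimates of all 15 called members were over 1.2-fold. When the change was tested against a 1.2-fold change in place of no change, with the estimates as they were, 1 member passed, Iigp1. Precision is limited by the small number of arrays. The count of members called was 6 without transgenic array 1, 9 without transgenic array 2 and 9 without transgenic array 3, and 10 without control array 2.

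**Figure D1:**
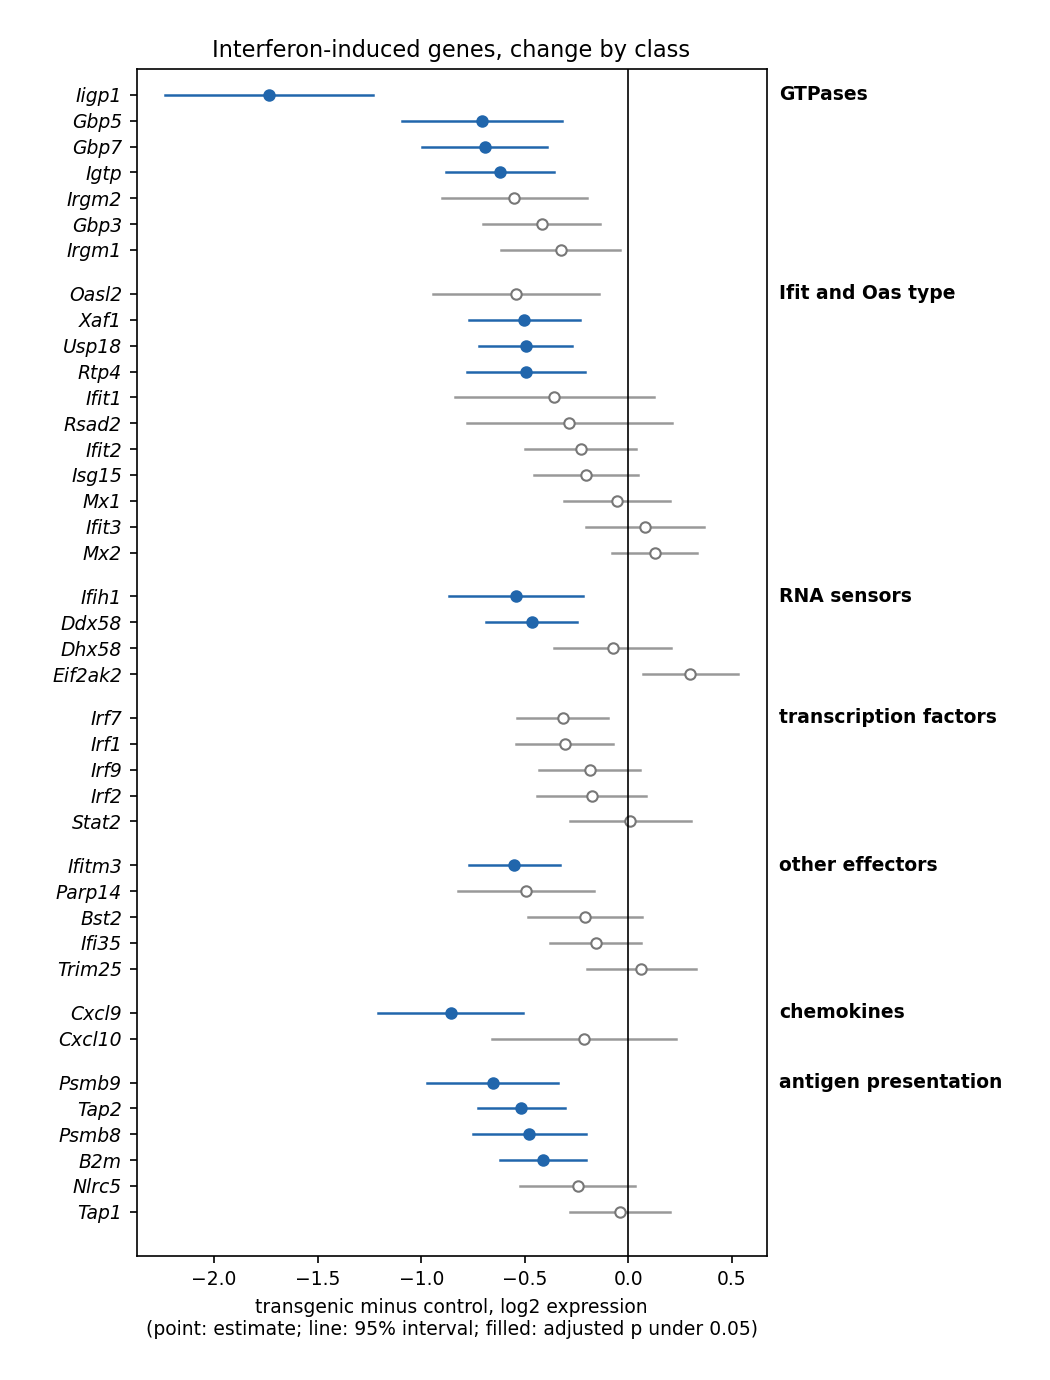
Change of each of the 40 measured interferon-induced genes, transgenic minus control on the log2 scale, by class. Points are estimates, lines 95% intervals, and filled points passed an adjusted p of 0.05. All 7 GTPases lie left of 0, Iigp1 at -1.74, and 5 genes lie right of 0.

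Before the members are read gene by gene, their brightness and the cell types of the heart have to be set beside them. Olfactory and vomeronasal receptor genes, 1394 in number and taken as genes with little expression in heart, had mean log2 values with a 95th percentile of 5.39. Of the members, 8 lay at or below it, namely Irgm1, Gbp5, Isg15, Mx1, Mx2, Dhx58, Cxcl10 and Nlrc5. A change in such a dim gene may be understated. Among cell type markers, against 5.76% of all genes, 7 of 12 macrophage markers fell and 0 rose. Their summed linear signal was 1137 to 1318 in transgenic hearts and 1770 to 1983 in control hearts. Of 12 endothelial markers 9 fell and 0 rose, with sums of 6742 to 7310 in transgenic and 8985 to 9501 in control hearts. All 12 markers of each of these lists had estimates below 0. Of 14 lymphocyte markers 0 fell and 0 rose by limma, and 2 had an unadjusted p under 0.05, where 25.4% of all genes did. Their sums overlapped, with 387 to 513 in transgenic hearts and 439.6 to 503.5 in control hearts, and 12 of the 14 were at or below the level of the olfactory and vomeronasal genes. Of 7 cardiomyocyte markers 0 fell and 0 rose, and 1 had an unadjusted p under 0.05. Of 7 fibroblast markers 1 rose, Postn, a call lost without any 1 array and under both rescalings. Of the 17 marker calls, 7 passed whichever array was left out. In RNA of whole hearts, fewer cells of a type and less RNA per cell cannot be told apart, and the part of macrophage and endothelial content in the results that follow was not tested.

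**Figure D2:**
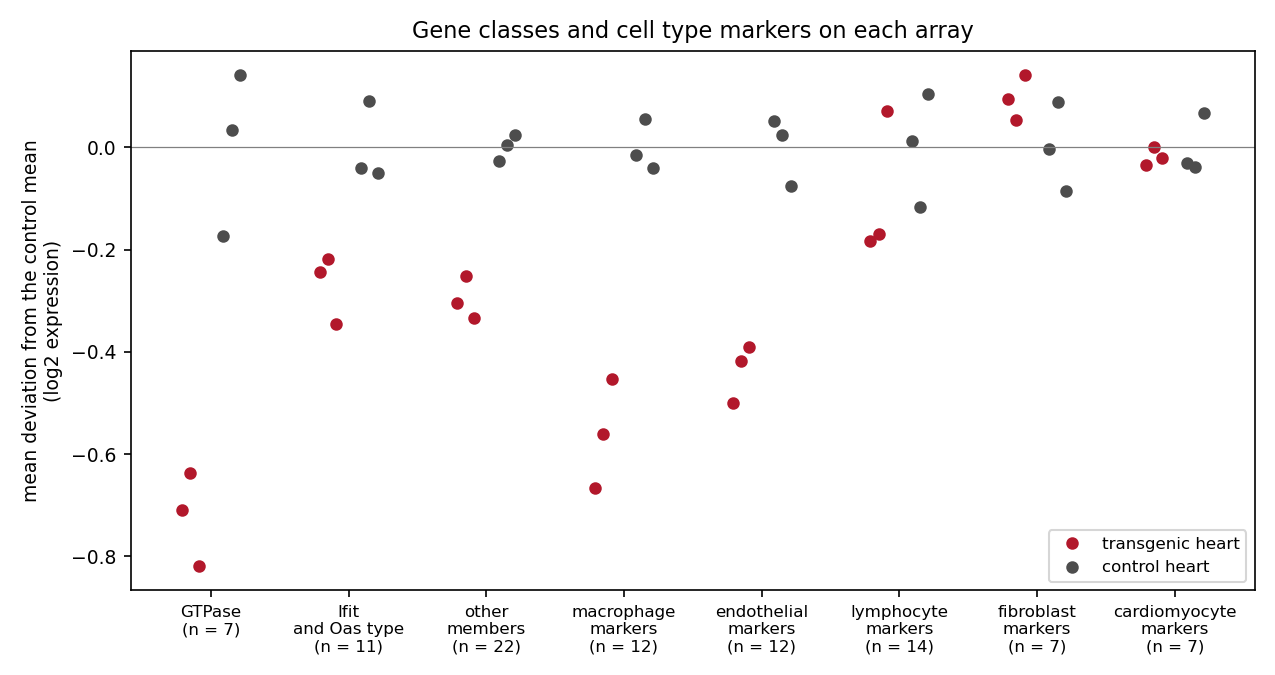
Mean deviation of each array from the control mean of each gene, in log2 units, for 3 classes of interferon-induced genes and 5 lists of cell type markers. Each point is 1 array, transgenic left of control. The transgenic arrays lie at -0.64 to -0.82 for the GTPases and at -0.22 to -0.35 for the Ifit and Oas type, with macrophage markers at -0.45 to -0.67 and cardiomyocyte markers at -0.03 to 0.

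The GTPases belong to the IRG family (Igtp, Irgm1, Irgm2, Iigp1) and to the guanylate-binding proteins (Gbp3, Gbp5, Gbp7), which in mice damage vacuoles that hold parasites or bacteria and are strongly induced by interferon gamma. Of 7 measured, 4 fell and 0 rose, where 5.76% of all genes fell. All 7 had an unadjusted p under 0.05, as did 25.4% of all genes. In 6 the groups did not overlap, all lower, where 16.7% of all genes were lower without overlap. The median change of the 7 was -0.62 on the log2 scale.

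Iigp1, an effector of the IRG family that inserts into vacuole membranes, had log2 values of 5.25, 5.90 and 5.38 in transgenic hearts, against 6.90, 7.13 and 7.69 in control hearts. Every transgenic heart was at least 1 log2 unit below every control heart. The mean was 5.51 ± 0.34 in transgenic and 7.24 ± 0.41 in control hearts (SD, n = 3 each), a 3.33-fold lower level (log2 change -1.74, SE 0.22, limma adjusted p = 0.002101). It passed the test in all 15 alternative settings run, including the test against a 1.2-fold change, with adjusted p from 0.00034 to 0.0121. This was the largest fall among the 40 members.

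Gbp7, a guanylate-binding protein, had 6.60, 6.48 and 6.08 in transgenic hearts and 7.12, 7.07 and 7.05 in control hearts (log2 change -0.69, SE 0.13, limma adjusted p = 0.01212). The control hearts were close together and the transgenic hearts were spread more widely below them. Igtp, a regulator of other IRG proteins also known as Irgm3, had 5.49, 5.47 and 5.33 in transgenic hearts, against 5.93, 5.95 and 6.29 in control hearts (change -0.62, 1.54-fold lower, adjusted p = 0.01059). Igtp and Gbp7 passed in each fit that left out 1 array, with adjusted p from 0.0149 to 0.0447 and from 0.0171 to 0.0467. Gbp5, which promotes inflammasome assembly, had 4.35, 4.58 and 4.21 in transgenic hearts, against 4.70, 5.31 and 5.26 in control hearts (change -0.71, adjusted p = 0.03113). It is the dimmest of the class, and its call was lost without transgenic array 1 (0.0993), transgenic array 2 (0.0513), transgenic array 3 (0.103), control array 2 (0.0814) or control array 3 (0.0762), and with array weights (0.0566).

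The other 3 GTPases did not pass the test. Irgm2, a Golgi-associated regulator of the family, had 6.20, 6.00 and 6.04 in transgenic hearts, against 6.35, 6.56 and 6.98 in control hearts (change -0.55, adjusted p = 0.0529). Gbp3 had 5.15, 5.45 and 5.38 in transgenic hearts, against 5.54, 5.92 and 5.78 in control hearts (change -0.42, adjusted p = 0.0657). The groups did not overlap in either gene. Both passed after renewed quantile normalization (0.0336 for Irgm2 and 0.0461 for Gbp3) and with arrays centred on the median (0.0295 and 0.0478). Both rescalings tilted the calls over all genes downward, with 36.4% and 38.1% of called genes higher, against 48.2% in the main fit. Irgm2 and Gbp3 also passed with the dimmest 33.3% of genes left out (0.0367 and 0.0444) and without control array 1 (0.0323 and 0.0489). In all, each passed in 5 of 15 alternatives. Irgm1, which regulates autophagy and other IRG proteins, had 5.11, 4.77 and 4.98 in transgenic hearts, against 5.36, 5.41 and 5.06 in control hearts. Its groups overlapped (change -0.33, adjusted p = 0.1413). Each of these genes has close paralogs, and probes that name several genes, among them those of Gbp2, Tgtp1, Tgtp2, Ifi47 and Gvin1, were not analysed here.

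Genes of the Ifit and Oas type are induced mainly by type I interferon and block virus replication at several steps. Of 11 measured, 3 fell, 0 rose, 4 had an unadjusted p under 0.05, and the median change was -0.28. Of all genes, 5.76% fell and 25.4% had an unadjusted p under 0.05. The fallers were Xaf1, Usp18 and Rtp4. In the narrower group of Ifit1, Ifit2, Ifit3 and Oasl2, 0 of 4 passed by limma, 1 of 4 had an unadjusted p under 0.05, and the median was -0.29.

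Usp18, a protease that takes Isg15 off proteins and dampens type I receptor signalling, had 6.22, 6.28 and 6.10 in transgenic hearts, against 6.55, 6.79 and 6.75 in control hearts (log2 change -0.50, SE 0.098, limma adjusted p = 0.0145). The call was lost without transgenic array 1 (0.0508) or transgenic array 3 (0.0565). Xaf1, a proapoptotic protein that binds the caspase inhibitor XIAP, had 7.14, 7.51 and 7.14 in transgenic hearts, against 7.73, 7.85 and 7.72 in control hearts (change -0.50, adjusted p = 0.02892). Its call was lost without transgenic array 1 (0.108), transgenic array 3 (0.0977), control array 1 (0.0735) or control array 2 (0.0762). Rtp4, a chaperone of receptor transport, had 6.40, 6.20 and 6.21 in transgenic hearts, against 6.59, 7.01 and 6.69 in control hearts (change -0.49, adjusted p = 0.03704). The groups did not overlap in these 3 genes, and the Rtp4 call was lost without any 1 array except control array 1, at adjusted p from 0.0507 to 0.127.

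The classical type I effectors did not pass. Oasl2, an Oas-like protein, had 6.31, 6.31 and 5.68 in transgenic hearts, against 6.82, 6.64 and 6.46 in control hearts (change -0.54, adjusted p = 0.08849), with no overlap. It passed in 3 of 15 alternatives, among them renewed quantile normalization (0.0419) and array weights (0.0453). The Ifit proteins bind viral RNA or its translation machinery. Ifit1 had 5.56, 4.93 and 5.55 in transgenic hearts, against 5.31, 5.80 and 6.00 in control hearts. Ifit3 had 6.63, 7.05 and 6.77 in transgenic hearts, against 6.87, 6.76 and 6.58 in control hearts. The groups overlapped in both, with changes of -0.36 (95% interval -0.84 to 0.12) and 0.08 (-0.20 to 0.37). Mx1, a dynamin-like GTPase against influenza viruses, had 3.66, 3.80 and 3.81 in transgenic hearts, against 4.04, 3.72 and 3.68 in control hearts (change -0.06, interval -0.31 to 0.20). Mx1, Mx2 and Isg15, a ubiquitin-like modifier, lay at or below the level of the olfactory and vomeronasal genes, so their intervals cover only what a probe at that level can show. Ifit2, Rsad2 (viperin), Isg15 and Mx2 had changes of -0.23, -0.28, -0.21 and 0.13, with adjusted p from 0.2696 to 0.4734.

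**Figure D3:**
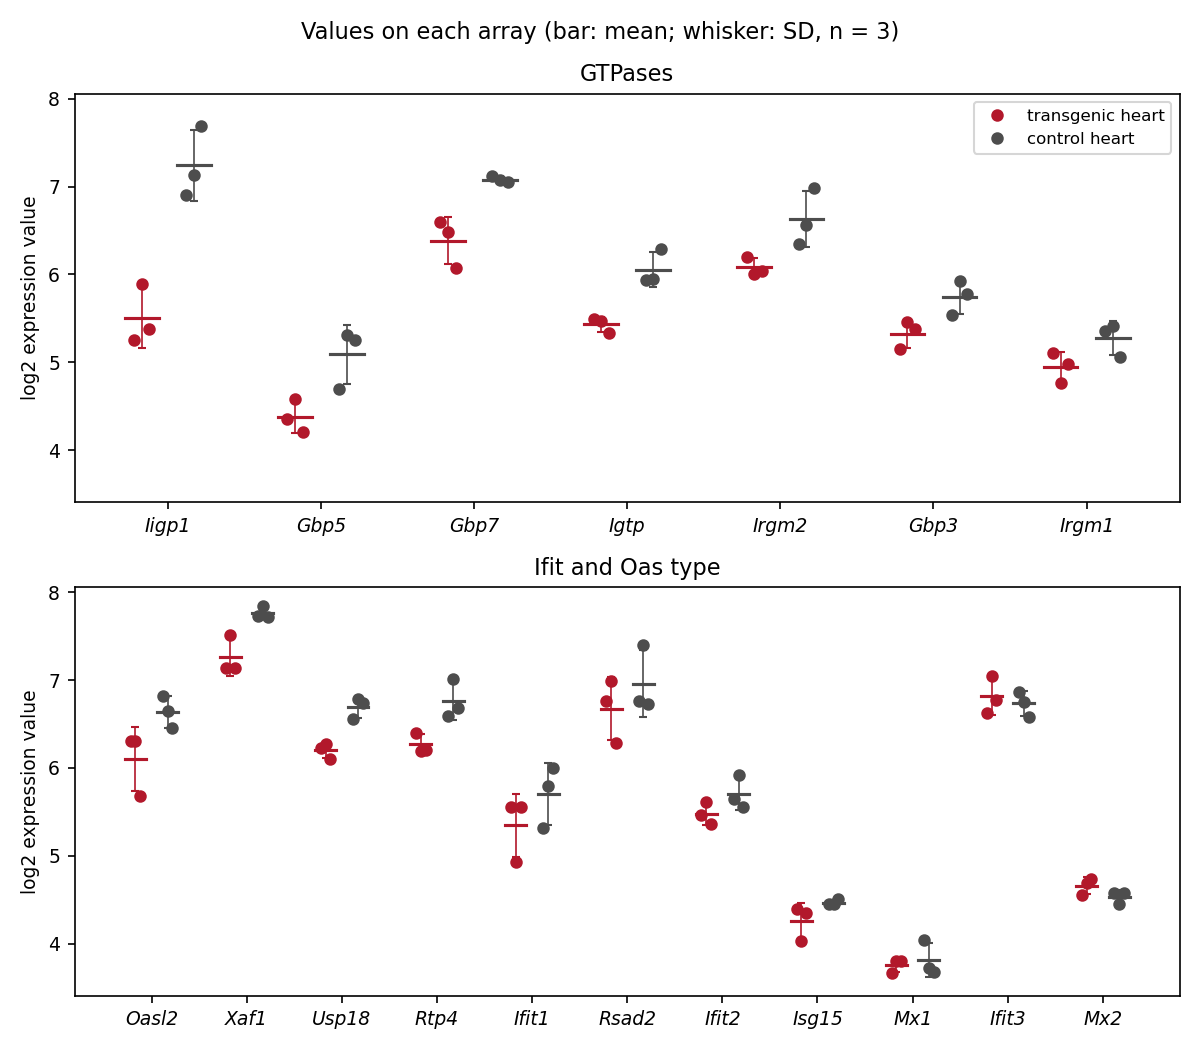
Log2 expression values of the 7 GTPases (top) and the 11 genes of the Ifit and Oas type (bottom) on each array, transgenic left of control. Bars are means and whiskers the SD of 3 arrays. The groups do not overlap for 6 GTPases and for 5 genes of the Ifit and Oas type, all lower. Of all genes, 16.7% were lower without overlap.

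Set side by side, the GTPases had a median change of -0.62 and the Ifit and Oas type one of -0.28. The smallest GTPase change was that of Irgm1, -0.33, and 5 of the 11 genes of the Ifit and Oas type had an estimate further below 0. Averaged over the class as deviations from each gene's control mean, the GTPases stood at -0.71, -0.64 and -0.82 on the transgenic arrays, against -0.17, 0.03 and 0.14 on the control arrays. The Ifit and Oas type stood at -0.24, -0.22 and -0.34 on the transgenic arrays, against -0.04, 0.09 and -0.05 on the control arrays. The medians kept this order with Mx1 and Mx2, which are GTPases too, moved to the GTPase class (-0.55 against -0.36). With the dimmest genes left out, Gbp5, Isg15, Mx1 and Mx2 among them, the medians lay closer together. They were then -0.59 for the GTPases and -0.43 for the Ifit and Oas type. The 8 further GTPases that are not members had a median of -0.13, with 6 at or below the level of the olfactory and vomeronasal genes. The difference between the classes was not tested, since the members were chosen with results known. Macrophage markers moved in the same arrays by a mean of -0.56 and endothelial markers by -0.44.

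**Figure D4:**
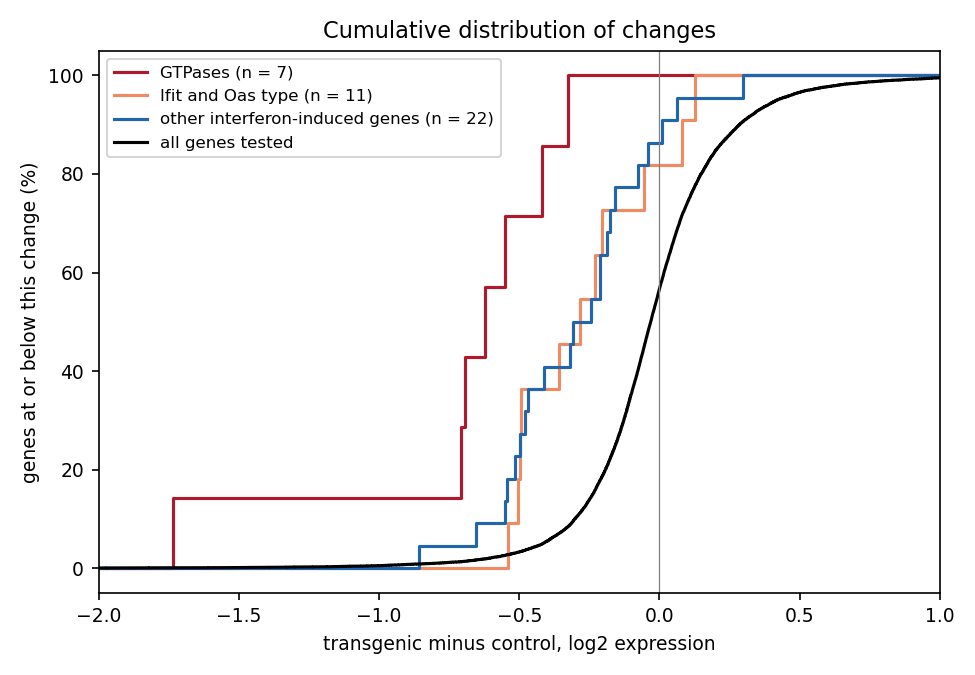
Cumulative share of genes, in percent, at or below each change, transgenic minus control on the log2 scale, for the GTPases, the Ifit and Oas type, the other interferon-induced genes and all genes tested. The medians of the 3 classes, -0.62, -0.28 and -0.28, lie left of that of all genes, -0.03.

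The sequences before the start sites were searched for the ISRE and GAS elements through which interferons act. RefSeq windows of build GRCm38.p6 were found for 31 of the 40 members. In the 250 bases before a start, 2 motifs were searched on both strands: the ISRE core, which is GAAA and GAAA with any 2 bases between them (TTTC and TTTC on the other strand), and the GAS element, TTC and GAA with any 3 bases between them, which reads the same on both strands. Matches of the 2 motifs may overlap, as in Bst2. An ISRE core was found for 577 of 16918 genes tested that have a window (3.41%) and a GAS match for 1322 (7.81%). Among members with a window, 15 had an ISRE core (48.4%) and 10 a GAS match (32.3%). Of 6 GTPases with a window, Iigp1 not among them, all 6 had an ISRE core and 4 a GAS match. Of 7 genes of the Ifit and Oas type 4 had an ISRE core and 1 a GAS match. Of 11 members that fell 4 had an ISRE core, and of 20 that did not pass 11 did. The list was made of interferon-responsive genes, so their higher share of these elements is not a separate result. A match is a description of letters, and binding was not measured.

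Windows of 100 bases that hold these matches are shown for 5 GTPases and 3 Ifit genes. Genes whose window holds no match are not shown, among them Oasl2, which did not pass, and Xaf1 and Cxcl9, which fell. The genes shown were picked for a match, so they do not show how motif content goes with change. Capitals mark ISRE core and GAS matches, and each sequence runs 5′ to 3′ toward the start site on the + strand.
Igtp, chr11:58199447-58199546: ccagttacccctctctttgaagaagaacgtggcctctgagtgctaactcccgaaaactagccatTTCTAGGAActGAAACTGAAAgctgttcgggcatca
Irgm2, chr11:58214838-58214937: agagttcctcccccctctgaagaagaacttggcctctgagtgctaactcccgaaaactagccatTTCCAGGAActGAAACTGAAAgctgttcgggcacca
Gbp3, chr3:142559930-142560029: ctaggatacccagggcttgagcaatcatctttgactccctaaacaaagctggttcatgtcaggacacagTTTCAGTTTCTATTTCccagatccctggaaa
Gbp5, chr3:142496806-142496905: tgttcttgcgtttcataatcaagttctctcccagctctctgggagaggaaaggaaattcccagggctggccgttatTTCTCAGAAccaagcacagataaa
Gbp7, chr3:142530208-142530307: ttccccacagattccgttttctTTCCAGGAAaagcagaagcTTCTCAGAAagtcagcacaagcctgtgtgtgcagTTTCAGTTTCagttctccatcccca
Ifit1, chr19:34640729-34640828: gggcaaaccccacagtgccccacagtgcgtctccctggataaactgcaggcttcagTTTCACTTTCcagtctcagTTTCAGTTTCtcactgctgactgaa
Ifit2, chr19:34550444-34550543: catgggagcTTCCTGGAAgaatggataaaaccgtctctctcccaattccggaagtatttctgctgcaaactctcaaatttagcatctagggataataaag
Ifit3, chr19:34583332-34583431: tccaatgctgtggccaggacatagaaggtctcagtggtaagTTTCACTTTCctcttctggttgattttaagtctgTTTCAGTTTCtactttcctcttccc
The Igtp and Irgm2 windows are identical at 90 of 100 bases and hold a GAS match next to an ISRE core. In Gbp7 there are 2 GAS matches and 1 ISRE core, while Ifit1 and Ifit3 show 2 ISRE cores each and 0 GAS matches. In the windows shown, neither motif was found in 1 class alone, and the counts by class are those given above. Gbp3 shows 2 overlapping ISRE cores and 0 GAS matches, and Irgm1, not shown, has 2 and 0 as well. Ifit2 shows 1 GAS match and 0 ISRE cores, in a stretch 250 to 151 bases before its start. Gbp3 and Ifit2 each have another listed start, and the window before it holds 0 matches. Gbp5 shows 1 GAS match, and its other GAS match and its ISRE core lie further from the start. Igtp, Gbp5 and Gbp7 fell, and the other 5 genes shown did not pass the test.

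Genes of antigen presentation put peptides on MHC class I for T cells to read. Of 6 measured, 4 fell and 0 rose, where 5.76% of all genes fell, and the median change was -0.44. B2m, the shared light chain of class I molecules and the brightest member, had 11.16, 11.33 and 11.27 in transgenic hearts, against 11.65, 11.58 and 11.76 in control hearts (change -0.41, SE 0.092, limma adjusted p = 0.0235). Tap2, a subunit of the peptide transporter, had 5.72, 5.75 and 5.73 in transgenic hearts, against 6.32, 6.10 and 6.33 in control hearts (change -0.52, adjusted p = 0.009605). The transgenic hearts were nearly equal for Tap2, and it passed in each fit that left out 1 array. B2m lost its call without transgenic array 1 (0.0927), 2 (0.0543) or 3 (0.067) and without control array 1 (0.0686).

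Psmb8 and Psmb9 are interferon-induced subunits that replace Psmb5 and Psmb6 in the immunoproteasome. Psmb10, another such subunit and not a member, did not pass (change -0.31, limma adjusted p = 0.1036), with no overlap. Psmb9 had 5.22, 5.61 and 5.56 in transgenic hearts, against 5.89, 6.30 and 6.17 in control hearts (change -0.66, 1.58-fold lower, limma adjusted p = 0.01956), and Psmb8 had 5.73, 5.97 and 6.12 in transgenic hearts, against 6.27, 6.51 and 6.47 in control hearts (change -0.48, adjusted p = 0.03584). The groups did not overlap in either. The Psmb9 call was lost without transgenic array 1 (0.0674) or control array 2 (0.056). That of Psmb8 was lost without transgenic array 1 (0.116), transgenic array 2 (0.0992), control array 2 (0.0918) or control array 3 (0.0757). Of the standard subunits Psmb5, Psmb6 and Psmb7, 0 passed by limma and 1 had an unadjusted p under 0.05, as did 25.4% of all genes. Psmb6 had a change of 0.31 (adjusted p = 0.0583), Psmb5 -0.10 and Psmb7 -0.0036.

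Tap1, the other transporter subunit, had 7.10, 7.0 and 7.08 in transgenic hearts, against 7.02, 6.98 and 7.31 in control hearts (change -0.04, 95% interval -0.28 to 0.20). Its groups overlapped, while those of its neighbour Psmb9 did not. The 2 genes are read in opposite directions, and the 225 bases between their start sites are shown here because they stand before both. The stretch is given on the + strand, which runs toward Tap1, and holds no match to either motif.
Psmb9 and Tap1, chr17:34187331-34187555: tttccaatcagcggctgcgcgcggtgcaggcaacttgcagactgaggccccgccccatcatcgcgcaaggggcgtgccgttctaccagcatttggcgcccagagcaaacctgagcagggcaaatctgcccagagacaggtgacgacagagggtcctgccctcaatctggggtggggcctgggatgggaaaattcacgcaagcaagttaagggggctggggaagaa
The Psmb9 value minus the Tap1 value was -1.88, -1.39 and -1.51 on the transgenic arrays, against -1.13, -0.68 and -1.13 on the control arrays, a difference of -0.61. An exact two-sided permutation test gave p = 0.1, the smallest that 3 against 3 arrays allow, and the pair was chosen after its values were seen. Nlrc5, the transactivator of class I genes, is dim and had a change of -0.24 (adjusted p = 0.2546).

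Among RNA sensors 2 of 4 fell and 0 rose, where 5.76% of all genes fell. Ddx58, the sensor RIG-I, had 6.43, 6.41 and 6.52 in transgenic hearts, against 7.05, 6.93 and 6.78 in control hearts (change -0.47, SE 0.096, limma adjusted p = 0.01693). Ifih1, the sensor MDA5, had 5.78, 5.83 and 5.58 in transgenic hearts, against 6.28, 6.55 and 6.00 in control hearts (change -0.54, adjusted p = 0.04233). The Ddx58 call was lost without transgenic array 1 (0.0667), transgenic array 2 (0.0714) or control array 1 (0.0646), and the Ifih1 call without any 1 array except control array 3, at adjusted p from 0.0892 to 0.134. Eif2ak2, the kinase PKR that stops translation on double-stranded RNA, had an estimate above 0. Its values were 6.22, 6.34 and 6.07 in transgenic hearts, against 5.86, 6.03 and 5.85 in control hearts (change 0.30, adjusted p = 0.09896), and was the only member with all transgenic values above all control values. Dhx58, the related protein LGP2, had 5.23, 5.24 and 4.94 in transgenic hearts, against 5.18, 5.04 and 5.41 in control hearts, with overlap and a change of -0.08 (adjusted p = 0.7642).

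The transcription factors gave 0 calls by limma, and 2 of 5 had an unadjusted p under 0.05, as did 25.4% of all genes. Irf7, which amplifies type I interferon, had 5.89, 6.12 and 6.00 in transgenic hearts, against 6.22, 6.40 and 6.35 in control hearts (change -0.32, adjusted p = 0.07091). Irf1, a factor induced by interferon gamma, had 7.06, 7.03 and 7.01 in transgenic hearts, against 7.15, 7.42 and 7.46 in control hearts (change -0.31, adjusted p = 0.09421). Both were without overlap, and both passed after renewed quantile normalization (0.0257 for Irf7 and 0.0498 for Irf1). Irf7 also passed with the dimmest genes left out (0.0442) and Irf1 without control array 1 (0.0486). In all, each passed in 2 of 15 alternatives. Irf9 and Irf2 had changes of -0.19 and -0.18. Stat2 had 6.86, 6.96 and 6.61 in transgenic hearts, against 6.68, 7.02 and 6.70 in control hearts, a change of 0.01 (95% interval -0.28 to 0.30) whose sign turned in 6 of 15 alternatives, among them both rescalings, to -0.07 after quantile normalization and -0.03 with centred arrays.

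Of the chemokines that draw T cells through Cxcr3, Cxcl9, which answers mainly to interferon gamma, had 5.76, 5.41 and 5.28 in transgenic hearts, against 6.61, 6.19 and 6.22 in control hearts (change -0.86, SE 0.15, limma adjusted p = 0.009139). It passed in each fit that left out 1 array. Cxcl10 had 5.0, 5.06 and 5.15 in transgenic hearts, against 5.49, 4.76 and 5.60 in control hearts, and control array 2 was below every transgenic array (change -0.21, adjusted p = 0.5586). Without control array 2 the Cxcl10 change was -0.47 with an adjusted p = 0.02896, the only 1 of 15 alternatives in which it passed. Among the remaining effectors 1 of 5 fell, where 5.76% of all genes did. Ifitm3, a membrane protein that blocks virus entry, had 9.23, 9.39 and 9.47 in transgenic hearts, against 9.99, 9.83 and 9.91 in control hearts (change -0.55, SE 0.097, adjusted p = 0.008612), in each fit that left out 1 array as well. Parp14, an ADP-ribosyl transferase, had a change of -0.50 without overlap (adjusted p = 0.06064). It passed in 5 of 15 alternatives, among them both rescalings (0.0296 after quantile normalization and 0.0382 with centred arrays). Trim25, a ubiquitin ligase that acts on Ddx58, had 7.91, 7.69 and 7.88 in transgenic hearts, against 7.72, 7.98 and 7.61 in control hearts, with overlap. Bst2 (tetherin), Ifi35 and Trim25 had changes of -0.21, -0.16 and 0.06, with adjusted p from 0.3299 to 0.7959.

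The members differed between arrays of a group too. The median SD of a member was 0.133 on the transgenic and 0.187 on the control arrays, against 0.105 and 0.128 over all genes. Transgenic array 2 held the highest transgenic value for 21 of 40 members and transgenic array 3 the lowest for 18. Control array 2 held the highest control value for 16 and control array 1 the lowest for 16. Among the GTPases control array 1 was the lowest control for 5 of 7.

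The other genes of the pathway were read from lists of 129 genes that are not members, of which 112 were measured. Of these 27 fell, 0 rose and 85 did not pass, with a median change of -0.17. Over all genes, 5.76% fell, 5.35% rose and 25.4% had an unadjusted p under 0.05 by limma. These are the shares to set beside each list below. In fits that left out 1 array at a time, 8 of the 27 passed every time.

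Of 15 measured ligands 0 passed by limma, 1 had an unadjusted p under 0.05, and 9 lay at or below the level of the olfactory and vomeronasal genes. Ifng had 5.49, 5.27 and 5.35 in transgenic hearts, against 5.34, 5.55 and 5.67 in control hearts (change -0.15, 95% interval -0.40 to 0.10). Its mean over the 6 arrays, 5.44, lay just above that level (5.39), so the interval covers what a dim probe can show. Ifnl3, the ligand with the smallest p, had a change of -0.57 (limma adjusted p = 0.1807). Ifnb1, below the level of the olfactory and vomeronasal genes, had a change of -0.11.

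Of 6 receptor genes 3 fell. Ifngr2, the signalling chain of the interferon gamma receptor, had 9.79, 9.84 and 9.88 in transgenic hearts, against 10.88, 11.04 and 10.95 in control hearts. The groups lay almost 1 log2 unit apart with little spread in either (change -1.12, SE 0.085, limma adjusted p = 0.0002556), and the call held without each array in turn (0.00105 to 0.00263). Ifngr1, the ligand-binding chain, had 9.56, 9.42 and 9.60 in transgenic hearts, against 9.82, 9.97 and 9.86 in control hearts (change -0.35, adjusted p = 0.04088). That call was lost without any 1 of the 6 arrays (0.0621 to 0.146). Il10rb, shared by the receptors of type III interferon and interleukin 10, fell by 0.33 and lost its call without any 1 array except control array 3 (0.142 at most). The type I receptor genes did not pass. Their groups did not overlap, with Ifnar1 higher and Ifnar2 lower in transgenic hearts, as in 14.2% and 16.7% of all genes. Ifnar1 had 8.86, 8.81 and 8.94 in transgenic hearts, against 8.64, 8.72 and 8.46 in control hearts (change 0.26, interval 0.04 to 0.48, adjusted p = 0.1233), and Ifnar2 had a change of -0.14 (interval -0.33 to 0.04). The difference between the receptors was not tested.

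Among 5 further factors of the Irf family 1 fell, Irf4, by 0.42 (limma adjusted p = 0.04731), a call lost without any 1 array except control array 1 (0.133 at most). Behind the receptors, Jak1, Jak2 and Tyk2 had changes of -0.03, 0.06 and 0.20 and did not pass. Stat3 fell by 0.38 (limma adjusted p = 0.03679), a call lost without any 1 array except control array 2 (0.128 at most). Of 8 inhibitors of the pathway 0 passed by limma and 1, Socs1, had an unadjusted p under 0.05 (change -0.19).

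In the sensing pathways 3 of 12 genes fell, where 5.76% of all genes did. Mavs, the mitochondrial adaptor below Ddx58 and Ifih1, had 8.71, 8.78 and 8.83 in transgenic hearts, against 9.41, 9.38 and 9.35 in control hearts (change -0.61, SE 0.082, limma adjusted p = 0.002875). Tlr3, the endosomal receptor for double-stranded RNA, had 6.60, 6.56 and 6.80 in transgenic hearts, against 7.72, 7.68 and 7.16 in control hearts (change -0.87, adjusted p = 0.008986). Both held without each array in turn. Sting1, the adaptor for cytosolic DNA, fell by 0.51 (adjusted p = 0.03388) and lost its call without any 1 array except control array 3 (0.11 at most).

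**Figure D5:**
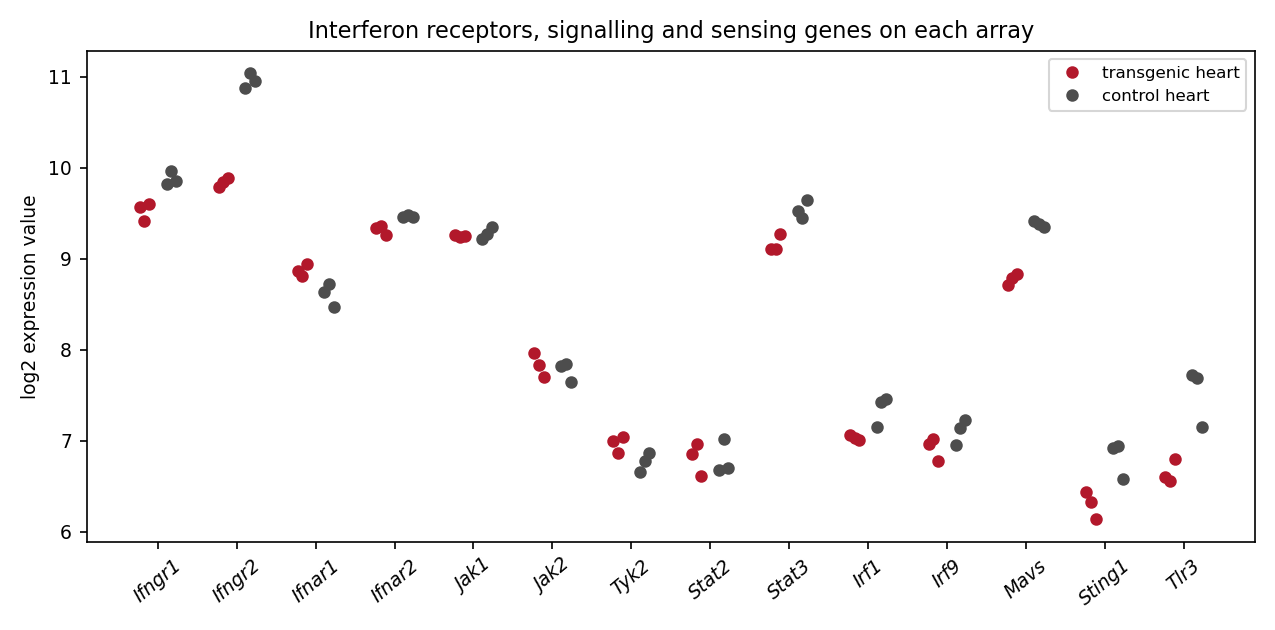
Log2 expression values of interferon receptor, signalling, transcription factor and sensing genes on each array, transgenic left of control. Ifngr2 and Mavs show the 2 groups clearly apart, with changes of -1.12 and -0.61, while Jak1, Jak2 and Stat2 overlap.

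The remaining lists hold further effectors. Of 39 further interferon-induced genes 13 fell and 0 rose, with a median change of -0.28, where 5.76% of all genes fell. Ly6e, a membrane protein that restricts coronaviruses, fell by 0.76 (limma adjusted p = 0.0009658), the nuclear body protein Sp100 by 0.82 (0.00293) and Lgals3bp by 0.70 (0.007691), and all 3 passed without each array in turn. Sp100 was no longer called when the probes of a gene were averaged. Of 8 further GTPases, with a median change of -0.13, 6 were at or below the level of the olfactory and vomeronasal genes, Gbp4 among them. In this list 2 fell, Gbp4 by 0.53 (0.008176) and Gbp10 by 0.79 (0.0235), and the Gbp10 call was lost without transgenic array 1 or 2 (0.0929 at most). Of 12 further class I genes 4 fell. Erap1, which trims peptides for class I, had 6.31, 6.34 and 6.19 in transgenic hearts, against 7.22, 7.10 and 7.03 in control hearts (change -0.83, adjusted p = 0.001052).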

How the data were processed

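Total RNA from 6 heart samples was labelled with biotin after poly(T) priming and hybridised, 1 heart sample per array, per the labels' protocols. The authors deposited log2 expression values of each probe. Tools listed per the submitters' processing notes are oligo, limma and RMA, with no version. They give neither the settings of RMA nor the source of the probe annotation. Of 41345 probes, 23521 name 1 gene, 1814 several and 16010 none. Arrays correlated at 0.982 to 0.989 within groups and 0.974 to 0.983 between groups. The comparison used limma (version 3.58.1, R 4.3.3; lmFit and eBayes, no covariates, 1 probe per gene, no filter on dim genes, threshold 0.05), tested on simulated data.

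The members, classes and lists were chosen with earlier results of these data known. Every member may be named. Members that passed, and the largest and smallest change of a class, are given by array. From each other list up to 4 genes by smallest p are named, and Ifnar2, Ifng, Ifnb1, Psmb10 and the pair of Psmb9 and Tap1 were chosen after their values were seen. Of 129 pathway genes 17 are not reported here. The alternatives changed the probe rule, the filter, the scaling, the variance model, array weights, the block, a test against a 1.2-fold change, the class limits and each array in turn.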

Additional observations from a re-analysis of the deposited data

How the results depend on the processing

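The direction of the median change held under every alternative run for the members, the GTPases and the Ifit and Oas type. Among 596 fits of single members the sign turned in 13, with a change of at most 0.07 in size, in 6 genes. Many of these fits could not turn a sign. Testing every probe, the filter, the variance model, the block and the 1.2-fold test leave a gene's estimate as it is. Averaging probes changes it among the members for Ifi35 alone. The share of higher genes among all calls was 48.2% (1278 lower, 1187 higher), 36.4% after renewed quantile normalization (1789 lower, 1023 higher) and 38.1% with centred arrays (1453 lower, 894 higher). Tested against a 1.2-fold change in place of no change, a stricter null with the same estimates, 520 genes, 1 member, 1 GTPase and 0 genes of the Ifit and Oas type passed. With only Ifit1, Ifit2, Ifit3 and Oasl2 in that class, 0 passed. Leaving out 1 array at a time gave 1171 to 2249 genes, 6 to 15 members, 3 to 6 GTPases and 0 to 2 genes of the Ifit and Oas type. The 0 arose without transgenic array 1 or 3. The median change of the members then ran from -0.41 to -0.34, that of the GTPases from -0.68 to -0.51 and that of the Ifit and Oas type from -0.39 to -0.22. With fewer arrays a test has less power, and the cause of single losses was not tested. With the replicate number as a block, 1996 genes, 16 members, 5 GTPases and 3 genes of the Ifit and Oas type passed. Rtp4 (adjusted p = 0.062), Ifngr1, Il10rb and Irf4 lost their calls and Gbp3 (0.0335) and Oasl2 (0.0291) gained one. Over all genes, same-numbered samples did not deviate together (correlations 0.0163, -0.13 and 0.0138), with 0.108 at most between samples of different number. A correlation over all genes cannot show a pairing that touches only some genes, so whether the numbers pair the samples stays unknown. Signal over background limits the dim members, since no detection calls were used.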
